A study of Paeonia lutea x Paeonia suffruticosa with 9 samples.

Results

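The 200 transcripts described here were those whose level in tree peony buds (cultivar ‘High Noon’) was raised at the floral organ stage (stage III) over both earlier stages. They were 200 of 137758 transcripts in the deposited values, of which 97447 had reads in at least 1 of the 9 libraries. They were chosen by their measured FPKM (fragments per kilobase of transcript scaled to the total of the library), with 1 added to each value. A transcript met the rule where its lowest stage III library was at least 1.5 times its highest library of stages I and II. Transcripts whose lowest stage II library was already at least 1.5 times the highest stage I library were left out, and so were the 26 floral transcripts that the study named. Of 479 transcripts raised at stage III by that ratio, 193 were left out for the rise at stage II and 2 for being floral transcripts, both of them matches to PI. The remaining 284 were ranked by the ratio, and the highest 200 were kept. The stage contrasts of these transcripts are therefore a description of what was selected, and no test of them is offered as support.

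‘High Noon’ is a reblooming hybrid of Paeonia lutea and Paeonia suffruticosa, and the labels give plants of 5 years and floral buds as the tissue of every library. The study itself describes plants of 3 to 5 years. Stage I is the vegetative meristem (libraries S1_1 to S1_3), stage II the floral meristem (S2_1 to S2_3) and stage III the floral organ stage (S3_1 to S3_3), with 3 libraries per stage and no treatment. The study removed adjacent scales and leaves before it froze the buds. Cell types were not separated, so a change in their shares and a change of RNA per cell cannot be told apart. RNA quality was measured separately for each library, and the study calls its replication biological. The sources do not say, however, that the 3 libraries of a stage came from separate plants. Any p-value therefore measures only the spread between these libraries, which may be in part technical and need not be that between plants. The library totals were 20065002 to 20996594 fragments at stage I, 20230573 to 25195520 at stage II and 20096583 to 22657762 at stage III. In the study's values, RNA integrity numbers and mapping rates were lower in every stage I library than in every library of stages II and III. Whether this bears on the stage I levels was not tested.

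When a shoot apex turns to flowering, meristem identity genes such as LFY and AP1 come on in the young flower primordia, and organ identity genes then divide the flower into whorls. Most organ identity genes encode MADS-box transcription factors that act in complexes. In Arabidopsis, PI acts with AP3 to specify petals and stamens, and the SEPALLATA factors are partners in each whorl. Later, as organs grow and differentiate, many further genes come on in particular tissues such as the anther, the petal and the ovule. No identifier comes with a gene name in the deposited values, so the 200 transcripts carry no gene names or roles here and are called by their rank and length. For that reason identifiers are given for only 3 of them.

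The transcript ranked 1, i0_LQ_HNbud_c72184/f1p10/804 (804 bp), had FPKM values of 0.95, 0 and 0 at stage I, 0, 0.99 and 0 at stage II, and 353, 132 and 259 at stage III. Its stage III mean was 248 ± 111 FPKM (SD, n = 3), and its lowest stage III library was 67.0 times its highest earlier library on FPKM + 1. Its reads before stage III came from 1 library of each stage, with expected counts of 10.3 in S1_1 and 12.6 in S2_2, against 1433 to 3743 at stage III.

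The transcript ranked 2, i1_LQ_HNbud_c34047/f1p0/1535 (1535 bp), was the most abundant of the 200. It had 17.3, 0.30 and 0 FPKM at stage I, 20.2, 19.9 and 14.98 at stage II, and 2336, 1967 and 1377 at stage III, with a stage III mean of 1894 ± 484 FPKM (SD, n = 3) and a ratio of 65.1. At stage I nearly all of its reads lay in S1_1, where its level was within the range of stage II. Its place in the list rested on that library, because without S1_1 its stage II values were over 1.5 times all those of stage I and it no longer met the rule. Without S3_3 the transcripts ranked 1 and 2 changed places. Whether the reads in S1_1 came from the buds of that library was not tested.

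The transcript ranked 3 (1473 bp) had 1.05, 0 and 0 FPKM at stage I, 1.42, 0.87 and 1.18 at stage II, and 114, 101 and 68.5 at stage III. The transcript ranked 4 (1027 bp) had 0.71, 0 and 1.27 FPKM at stage I, 0.42, 1.38 and 0.66 at stage II, and 53.0, 119 and 227 at stage III. These transcripts had like stage III means, 94.5 ± 23.3 and 133 ± 87.9 FPKM (SD, n = 3), but opposite orders of the stage III libraries, with S3_1 the highest for rank 3 and the lowest for rank 4.

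The transcripts ranked 5 to 10 (760 to 2157 bp) had stage III means of 22.8 to 53.7 FPKM, and their earlier libraries did not exceed 2.58 FPKM. Rank 5 (1248 bp) had 71.5, 53.4 and 36.2 FPKM at stage III, rank 6 (2157 bp) had 37.7, 40.3 and 33.7, and rank 7 (1583 bp) had 39.1, 27.4 and 17.4. Ranks 7 and 8 had no reads in any stage I library. Rank 8 (1487 bp) reached 28.9, 23.5 and 15.99 FPKM at stage III, and rank 9 (1403 bp) reached 52.9, 34.8 and 30.5. Rank 10 (760 bp) had 0.60, 0.21 and 0.28 FPKM at stage I, 2.58, 0.26 and 0.93 at stage II, and 46.4, 36.4 and 38.0 at stage III. It was the highest ranked transcript whose counts were whole numbers in every library, which leaves no sign of fragments shared with other transcripts.

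**Figure D1:**
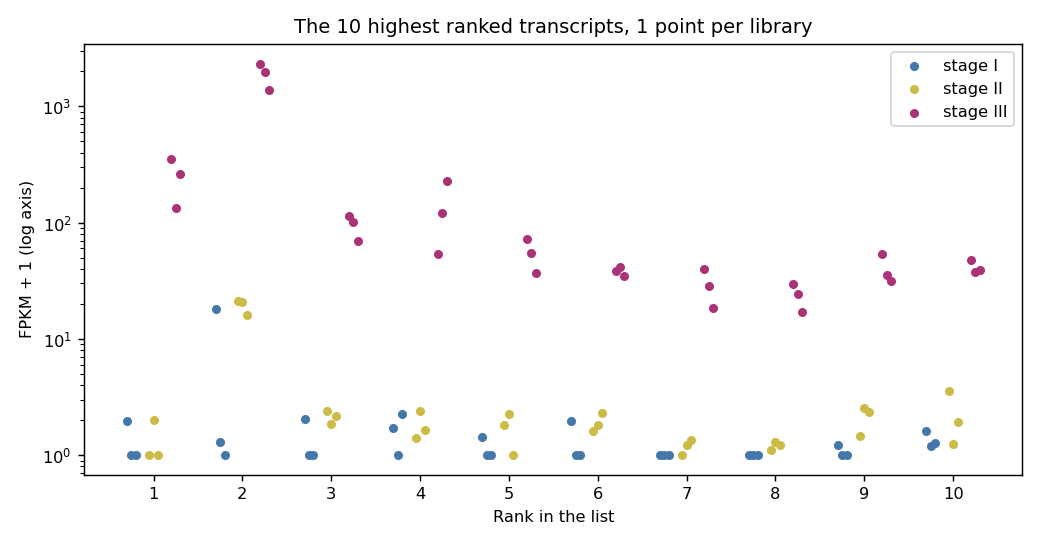
FPKM + 1 on a log axis for the 10 highest ranked transcripts, with 1 point for each of the 3 libraries of stages I, II and III. Every stage III point lies above all earlier points of the same transcript, as the rule requires, and rank 2 is the only one of the 10 with earlier values over 10 FPKM.

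The ratio fell off quickly down the list. Its median was 2.01 (range 1.64 to 67.0), and it was at least 20 for 4 transcripts, at least 10 for 11, at least 5 for 23 and at least 3 for 49. At the edge, the transcripts ranked 198 to 200 had ratios of 1.6455, 1.6452 and 1.6407, and the first 3 outside had 1.6405, 1.6397 and 1.6397. Rank 200 (4584 bp) rose from a highest earlier value of 64.7 FPKM to a lowest stage III value of 107, and the first transcript outside (1474 bp) from 63.3 to 104. The list thus ends at its fixed length, with no gap in the values. The mirrored rule, with stage III below both earlier stages and no fall from stage I to II in every library, was met by 85 transcripts, against 284 for the rise. That difference belongs to the rule. In the edgeR test from stage II to III (q under 0.05 and fold change over 2), 477 transcripts were called higher and 483 lower.

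Means under 1 FPKM were found for 127 of the 200 at stage I and 86 at stage II. The mean FPKM of the 200 had a median of 0.538 at stage I (range 0 to 144), 1.41 at stage II (0 to 266) and 9.61 at stage III (1.02 to 1894). Over all transcripts with reads the medians were 1, 1.17 and 1.15. At stage III, 25 of the 200 were below 2 FPKM, 37 from 2 to below 5, 39 from 5 to below 10, 72 from 10 to below 50, 19 from 50 to below 200 and 8 at 200 or more.

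The list held transcripts that were close to silent before stage III as well as transcripts already well expressed. Means under 1 FPKM at both earlier stages were found for 84, with a stage III median of 3.38 FPKM (range 1.02 to 248), and 12 of these reached at least 10. Means of at least 10 FPKM at both earlier stages were found for 17, with a stage III median of 111 FPKM. For these 17 the stage III mean was 2.06 to 6.82 times the stage II mean on FPKM + 1, with a median of 2.40. Rank 93 (613 bp), picked after its values were seen as the second most abundant at stage III, had 144, 226 and 60.9 FPKM at stage I, 310, 292 and 196 at stage II, and 828, 715 and 650 at stage III.

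**Figure D2:**
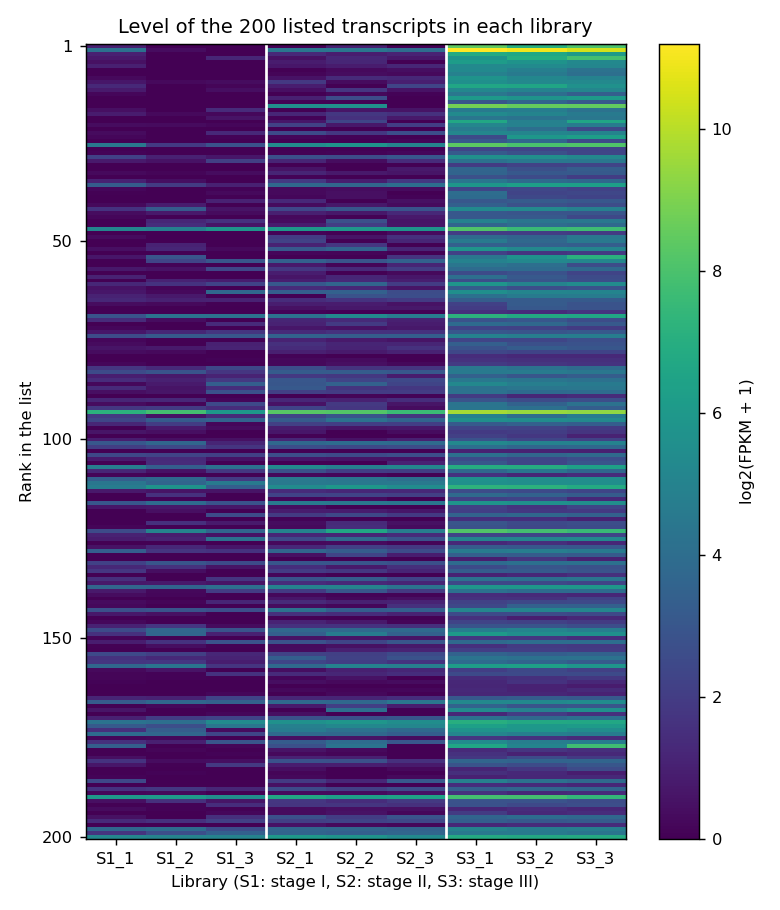
Level of the 200 transcripts, 1 row each in order of rank, in the 9 libraries, as log2(FPKM + 1), with white lines between stages. The 3 stage III columns are brighter in every row, and single bright rows, such as ranks 93 and 190, mark transcripts that were already abundant at stages I and II.

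No reads were counted in any stage I library for 32 of the 200 (16%, against 8.57% of all transcripts with reads), and 28 of these had reads at stage II. The other 4, ranked 15, 31, 103 and 130, had no reads in any of the 6 earlier libraries. The highest of the 4, rank 15 (1559 bp), had 6.63, 11.2 and 7.47 FPKM at stage III from 170, 293 and 215 reads. Rank 103 (332 bp) stood in the list on exactly 1 read in each stage III library, the least of the 200. Only this transcript had a stage III library under 5 reads, and 3 had one under 10. The rule used the stage I and II levels, so the counts of transcripts without early reads are a description. The share of 8.57% also covers transcripts with a stage III mean under 1 FPKM, while none of the 200 had one.

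The description of the list as raised only at stage III was not strict. The mean level on FPKM + 1 at stage II was at least 1.5 times that at stage I for 93 of the 200, within 1.5 times for 106, and lower by that ratio for 1. The rule let these 93 stay because it asked for the rise in every stage II library over every stage I library. For 43 of the 93, the libraries of stages I and II overlapped. The median FPKM of the 93 was 1.09 at stage I, 4.15 at stage II and 22.5 at stage III, and that of the 106 was 0.125, 0.37 and 5.54.

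Stage II lay above stage I in every library for 71 of the 200, beside 21.3% of all transcripts with reads. Stage II lay below stage I in every library for 1, beside 13.1%, and the stages overlapped for 128. These shares were bounded by the rule, which used both stages. The 1 transcript was i1_LQ_HNbud_c225841/f1p1/1470, ranked 117 (1470 bp), with 0.60, 0.67 and 0.61 FPKM at stage I, 0.34, 0 and 0 at stage II, and 3.34, 2.22 and 4.02 at stage III. Rank 54, singled out after its values were seen as the 1 whose stage II mean was lower by the 1.5 ratio on FPKM + 1, had 0.62, 6.69 and 0 FPKM at stage I, 0, 0 and 2.25 at stage II, and 20.9, 50.6 and 137 at stage III. Its earlier reads lay mainly in S1_2 and S2_3.

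**Figure D3:**
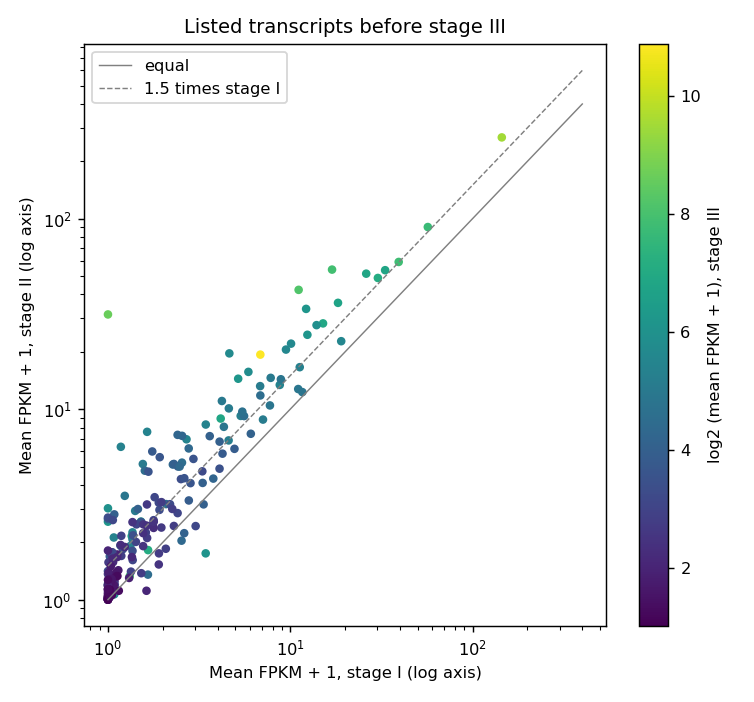
Mean FPKM + 1 at stage II against stage I for the 200 transcripts, both on log axes, coloured by log2 of the mean FPKM + 1 at stage III. The solid line marks equal levels and the dashed line 1.5 times stage I, and 93 transcripts lie on or above the dashed line.

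Single libraries carried a part of these early reads. Of the 200, 20 had stage I reads in S1_1 alone (10%), 9 in S1_2 alone (4.5%) and 10 in S1_3 alone (5%). Among all transcripts with reads these shares were 3.40, 3.57 and 3.79%. Among transcripts with a stage III mean of at least 1 FPKM, which all 200 had, they were 0.661, 0.407 and 0.444%. The rule used the stage I libraries, so these shares are a description. Among the first 20 ranks, 6 had stage I reads in S1_1 alone, none in S1_2 alone and 1 in S1_3 alone. For ranks 1 to 10 the median level in S1_1 was 0.692% of the stage III mean, while it was 0 in S1_2 and S1_3, and it was 1.04 to 1.11% in the stage II libraries.

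At stage II, S2_2 was at least 1.5 times both other libraries for 24 of the 200 (12%, against 1.61% of transcripts with a stage III mean of at least 1 FPKM). S2_3 was lower than both others by that ratio for 20 (10%, against 2.12%). The rule used the stage II libraries, and 1 low library among them could keep a transcript in the list. These counts are therefore a description, and what sets these libraries apart was not tested. Rank 16 (898 bp), picked after its values were seen, had no reads at stage I, 44.4, 46.9 and 0 FPKM at stage II, and 457, 377 and 357 at stage III.

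Together, the 200 transcripts took 0.0697, 0.0687 and 0.0662% of the fragments of the stage I libraries, 0.145, 0.150 and 0.112% at stage II, and 0.915, 0.787 and 0.726% at stage III. The Wilson 95% intervals at stage III were 0.910 to 0.919, 0.783 to 0.791 and 0.723 to 0.730%, and they cover counting error only. The means were 0.0682 ± 0.00178, 0.135 ± 0.0209 and 0.809 ± 0.0961% (SD, n = 3), which makes stage III 5.97 times stage II and 11.9 times stage I. Rank 2 alone held 32.2, 31.5 and 23.8% of these stage III fragments. Without it the stage III mean was 0.571 ± 0.0433%, or 4.29 times stage II. The 10 transcripts with the most reads held 55.4% of the stage III fragments of the 200, and the first 50 held 82.7%.

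**Figure D4:**
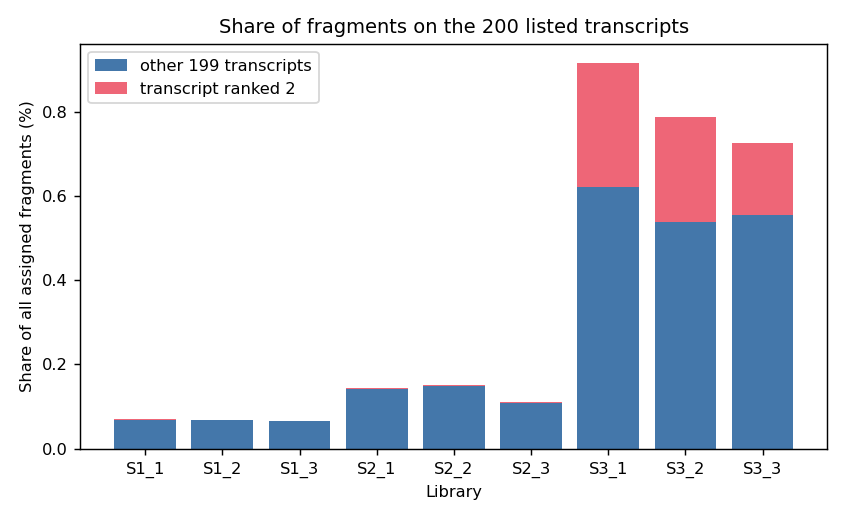
Share of all assigned fragments of each library, in percent, that fell on the 200 transcripts, with rank 2 shown apart from the other 199. The 3 stage III bars reach 0.726 to 0.915%, and those of stages I and II stay at or below 0.150%.

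The 3 stage III libraries did not contribute evenly. S3_1 was the highest stage III library for 118 of the 200 (59%, against 31.4% of the 50659 transcripts with a stage III mean of at least 1 FPKM), S3_2 for 53 (26.5%, against 36.9%) and S3_3 for 29 (14.5%, against 31.7%). S3_3 was the lowest for 97 (48.5%, against 34.4%). S3_1 was at least 1.5 times S3_3 on FPKM + 1 for 35 (17.5%, against 4.53%), and the reverse held for 9 (4.5%, against 5.05%). The median of S3_1 over S3_3 was 1.14, against 0.997 over all those transcripts. These counts are a description, since the rule used the lowest of these libraries, and what sets S3_1 apart was not tested.

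The highest stage III library of a transcript was 1.31 times the lowest in the median (range 1.01 to 13.5), against 1.23 for all 50659. The libraries were over 1.5 times apart for 64 (32%, against 18.0%) and over 3 times apart for 9 (4.5%, against 1.88%). The widest was rank 24 (926 bp), singled out for this, with 4.79, 60.3 and 77.4 FPKM. For 190 of the 200 the gap to the earlier stages was wider than the range among the stage III libraries. The rule selected and ranked by this gap, so the count is a description of what was selected.

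**Figure D5:**
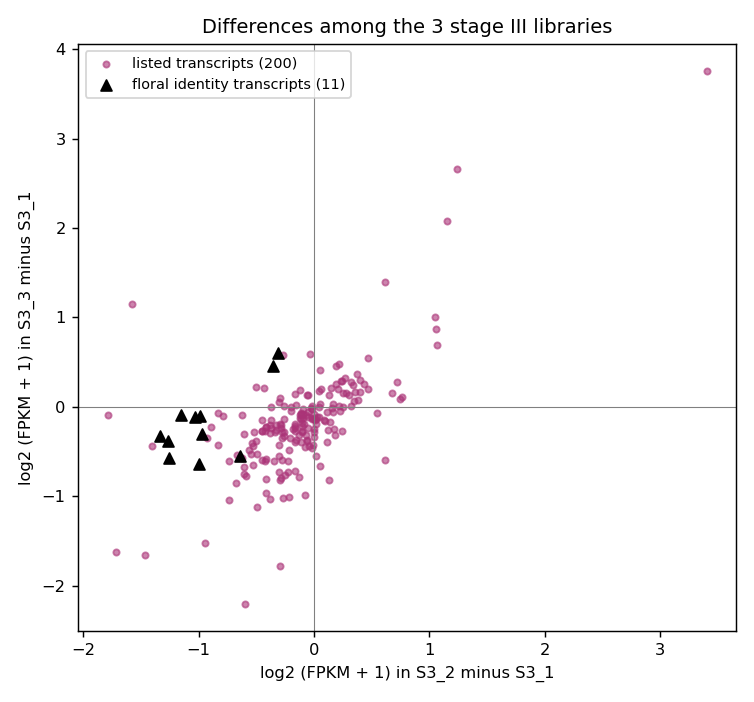
Differences in log2(FPKM + 1) among the stage III libraries, with S3_2 minus S3_1 on the horizontal axis and S3_3 minus S3_1 on the vertical axis, for the 200 transcripts (circles) and the 11 floral identity transcripts (triangles). All 11 triangles lie left of 0 on the horizontal axis and are lowest in S3_2, while the circles spread around 0 with most of them below it on the vertical axis.

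The study's 26 floral transcripts were a list chosen on these samples, so their directions are no independent evidence. The 2 PI transcripts were the only ones of the 26 that met the rule. The PI transcript of 869 bp had 0.16, 0 and 0 FPKM at stage I, 4.02, 0.42 and 0.59 at stage II, and 62.7, 25.4 and 47.7 at stage III, with a ratio of 5.26. The PI transcript of 955 bp had no reads at stage I, 3.86, 0 and 0 FPKM at stage II, and 34.7, 13.9 and 23.1 at stage III, with a ratio of 3.07. By ratio alone the first of these would have stood among the 23 transcripts at 5 or more. The stage II signal of both PI transcripts lay mainly in S2_1.

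Other floral transcripts had risen by stage II. One SEP3 transcript, a partner of the organ identity factors, had 1.18, 0.81 and 1.18 FPKM at stage I, 7.04, 6.20 and 10.01 at stage II, and 15.2, 9.42 and 10.1 at stage III, so that stages II and III overlapped. By the edgeR test (q under 0.05 and fold change over 2), 10 of the 22 floral transcripts tested rose from stage I to II and 3 fell, and from stage I to III 14 of 25 rose and 3 fell. Over all transcripts tested, 9.49% rose and 7.98% fell from stage I to II. From stage I to III 11.9% rose, and 6730 of 65124 fell. From stage II to III, 2 of 25 passed, both upwards. They were the PI transcript of 869 bp (log2 fold change 4.74, adjusted p = 0.0312) and TEM2 (log2 fold change 1.13, adjusted p = 0.0178). TEM2 is known in Arabidopsis as a repressor of FT. It had 5.73, 5.66 and 23.36 FPKM at stage I and 5.72, 4.84 and 4.26 at stage II. At stage III it had 10.14, 10.85 and 11.45 FPKM, within the range of stage I. By the same test TEM2 did not pass from stage I to III (log2 fold change -0.26, adjusted p = 0.779).

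All 11 transcripts of organ and meristem identity genes (PI, SEP3, SEPALLATA2, AP1, FUL, LFY and UFO) were lowest in S3_2 among the stage III libraries, and 10 of the 11 were highest in S2_1 among those of stage II. Of the 200, 61 (30.5%) were lowest in S3_2, against 29% of all 50659. The order S3_1 above S3_3 above S3_2, which 9 of the 11 had, was found for 47 of the 200 (23.5%, against 14.8% of all 50659). The most frequent order in the list was S3_1 above S3_2 above S3_3, with 71 (35.5%, against 16.6%).

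In the edgeR quasi-likelihood test with Benjamini-Hochberg adjustment, 197 of the 200 passed the filter on low counts from stage II to III, and 150 were called higher at stage III with a q value under 0.05 and more than a 2-fold change, beside 0.734% of 64971 transcripts. The rule used this contrast, and nothing is read from the count. At a q value under 0.001, 2 were called, those ranked 2 and 3, beside 0.00616%. DESeq2 called 151 at that threshold, beside 0.819%. The count of 150 fell when single libraries were left out: it was 18 without S3_1, 22 without S3_2, 65 without S3_3 and 78 without S2_3. The upward calls over all transcripts fell too, from 477 to 38, 47, 149 and 192 in the same order. With all 9 libraries in 1 fit the count was 1, beside 2 of 68174 transcripts. The median log2 fold change was 2.54, against -0.01 over all transcripts tested.

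From stage I to III, 197 were tested and 163 were called higher at stage III, beside 11.9% of 65124 transcripts, with a median log2 fold change of 4.0. This count was 105 without S3_1 and 103 without S3_3, while the upward calls over all transcripts fell from 7758 to 3409 and 2979. From stage I to II, 123 were tested and 7 were called, all higher at stage II, beside 9.49% of 64662 transcripts called higher and 7.98% called lower. The count of 7 became 30 without S1_3, 19 without S1_1 and 1 without any 1 of the stage II libraries. In the same order, the upward calls over all transcripts went from 6136 to 9396, 5301 and 1445 to 1660. The comparisons share libraries, so their counts are not independent of each other.

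The identifiers carry fields of the long-read clusters, made from RNA of all 3 stages. They were read by the usual naming of such clusters, which no source used here states. The length also enters FPKM, and so the rule and the levels, and its values are a description. The length in the identifier had a median of 1420 bp in the list (range 332 to 4616), against 1654 bp over all transcripts and 1574 bp over those with a stage III mean of at least 1 FPKM. Lengths of 1000 to below 2000 bp made up 64.5% of the list, against 41.8 and 50.7%, and lengths of 3000 bp or more made up 4%, against 14.5 and 9.83%. The 15 transcripts with a stage III mean of at least 100 FPKM had a median length of 860 bp, those of 10 to 100 FPKM 1314 bp, and those of 1 to 10 FPKM 1490 bp. A high-quality mark (HQ) was carried by 41 (20.5%), against 12.9% of all transcripts and 28.5% of those at 1 FPKM or more, and 146 (73%) rested on 1 full-length read, against 84.6 and 66.8%.

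Fractional expected counts, which arise where RSEM divides fragments between similar transcripts, were found in at least 1 library for 175 of the 200 (87.5%, against 87.7% of all transcripts with reads). The split between such a transcript and its near copies is uncertain, and whether transcripts of the list belong to 1 gene was not tested. The 25 with whole counts throughout ranked from 10 to 198 and had a median stage III mean of 22.0 FPKM, against 8.74 for the other 175.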

How the data were processed

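RNA-seq libraries of ‘High Noon’ buds at 3 stages, 3 per stage, were used. The authors mapped paired reads with bowtie2 to polished long-read transcripts and counted them with RSEM. The deposited values hold more transcripts than the non-redundant set that the study describes, a difference that the paper does not explain. They deposited expected counts without normalization, and FPKM values scaled for length and library size. No genome, sequence or annotation was used here. The members and lists were chosen with earlier results of these data known.

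Expected counts were rounded, kept by filterByExpr (minimum count 10, minimum total 15), normalized by TMM and tested on the 6 libraries of each comparison with edgeR 4.0.16 (R 4.3.3). DESeq2 1.42.0 and limma 3.58.1, on log2(FPKM + 1), were alternatives, with RLE size factors, no filter, all 9 libraries in 1 fit, a replicate block and each library left out. Another pseudocount, CPM, a minimum of reads and another ratio were tried for the rule. Python 3.11.15, pandas 2.3.3, NumPy 2.4.6, SciPy 1.17.1 and Matplotlib 3.10.9 were used. A count within 0.005 of a whole number was taken as whole. The edgeR test was tested on simulated data. Named were ranks 1 to 10, the 3 on each side of the end, any transcript with stage II below stage I in every library and the study's floral transcripts, with exceptions stated where they occur.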

Additional observations from a re-analysis of the deposited data

How the results depend on the processing

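The number of transcripts that met the rule, 284, was 532 with a pseudocount of 0.1 and 125 with a ratio of 2, and these settings kept 124 and 104 of the 200. With TMM-normalized CPM 310 met it and 164 were kept, with at least 10 mean reads at stage III 281 and 198, and with 1 library left out 271 to 417 and 159 to 184. From stage II to III the 150 calls became 1 with all 9 libraries in 1 fit and 2 at a q value under 0.001, and ranged from 18 to 134 with 1 library left out. From stage I to III the 163 calls ranged from 103 to 191 with 1 library left out. By edgeR 0 were called there at a q value under 0.001, with 191 at an unadjusted p under 0.05 and 149 by DESeq2. From stage I to II the 7 calls became 19 with DESeq2, 35 with all 9 libraries in 1 fit and 15 with limma, and ranged from 1 to 30 with 1 library left out. By edgeR 0 were called there at a q value under 0.001, with 30 at an unadjusted p under 0.05 and 2 by DESeq2. With 1 library left out, the upward calls over all transcripts moved as well. They ranged from 38 to 458 from stage II to III, 2979 to 11280 from I to III and 1445 to 9396 from I to II. The cause of these differences was not tested.

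The replicate numbers gave no sign of pairing the samples. Deviations of same-numbered libraries from their stage means correlated between -0.13 and 0.06, and not every library correlated best with its own number. With 3 libraries per stage this check is weak, and it cannot decide whether same-numbered libraries shared a batch. With the replicate block 116 were called from stage I to III, 2 from stage II to III and, by edgeR, 0 from stage I to II, with 34 there at an unadjusted p under 0.05. Depth limits the lowest of the 200, of which 3 had a stage III library under 10 reads.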
